A study of Mus musculus with 6 samples.

Results

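Mef2a, Mef2c and Srf encode DNA-binding factors of the MADS-box family, and their transcripts were measured in wild-type C57Bl/6 mice, in soleus muscle reloaded for 1 day. The soleus is a slow calf muscle that works against body weight. The members were chosen by gene symbol in the platform annotation, which gave each of them 1 probe, so they make up 3 of the 203 named genes on the array. The probes were 22E for Mef2a (Entrez gene 17258), 22G for Mef2c (17260) and 23D for Srf (20807). The data were 6 arrays of 223 probes, replicates 1 to 6, all of the same group. For each array, 3 micrograms of total RNA extracted from muscle cryosections were used. The labels give no separate animals, so p-values measure only the spread between these samples, which may be technical. No unloaded muscle was analysed here, and therefore no value below is a response to reloading.

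MADS-box proteins bind DNA as dimers through a conserved domain. MEF2 factors bind an A/T-rich site in the control regions of many muscle genes and act there with the MyoD family of myogenic factors, while class II histone deacetylases hold them in check. SRF binds the CArG box, which lies in immediate early genes and in genes of the contractile apparatus and the actin cytoskeleton, and it is assisted by ternary complex factors or by actin-regulated cofactors of the myocardin family. In skeletal muscle both kinds of factor are known for their part in fibre differentiation and in the upkeep of mature fibres.

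The promoters are shown because both kinds of site have been studied as self-regulatory elements of these genes, and because the 3 genes are compared below as possible co-varying transcripts. RefSeq promoter windows (GRCm38.p6, 250 bases before to 50 bases after an annotated start) were found for all 3 members, with 1 window each for Mef2a and Srf and 3 for Mef2c. They were searched on both strands for the CArG box and the MEF2 site, each of which reads the same on either strand. Capitals mark the matches, a MEF2 site in Mef2a (chr7:67372809-67373108, minus strand) and a pair of CArG boxes in Srf (chr17:46556113-46556412, minus strand). The window of Mef2c that starts farthest upstream (chr13:83503784-83504083, plus strand) is given without capitals. None of the 3 windows of Mef2c held an exact match to either motif.
Mef2a: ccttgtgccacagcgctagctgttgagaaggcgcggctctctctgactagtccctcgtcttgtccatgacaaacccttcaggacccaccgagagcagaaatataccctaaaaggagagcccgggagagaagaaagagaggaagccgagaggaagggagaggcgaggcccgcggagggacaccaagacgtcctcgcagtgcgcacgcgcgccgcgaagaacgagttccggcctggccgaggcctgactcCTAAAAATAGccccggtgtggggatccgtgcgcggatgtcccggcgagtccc
Srf: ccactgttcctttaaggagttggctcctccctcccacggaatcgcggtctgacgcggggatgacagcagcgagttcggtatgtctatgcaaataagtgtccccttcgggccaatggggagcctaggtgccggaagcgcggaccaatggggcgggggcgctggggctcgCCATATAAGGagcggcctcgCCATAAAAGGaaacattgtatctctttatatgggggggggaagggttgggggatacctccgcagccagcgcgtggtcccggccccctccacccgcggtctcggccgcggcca
Mef2c: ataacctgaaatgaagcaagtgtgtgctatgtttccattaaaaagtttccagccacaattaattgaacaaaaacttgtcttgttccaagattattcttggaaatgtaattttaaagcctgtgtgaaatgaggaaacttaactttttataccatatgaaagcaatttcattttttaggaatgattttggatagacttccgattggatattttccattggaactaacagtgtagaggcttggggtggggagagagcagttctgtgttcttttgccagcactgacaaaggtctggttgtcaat

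The MEF2 site of Mef2a began 2 bases before the annotated start and ran across it. The CArG boxes of Srf began 82 and 62 bases before the start and did not overlap each other or a MEF2 site. Of 32851 promoter windows in the RefSeq table, 3.19% held a MEF2 site and 1.63% a CArG box. Among 15 genes on the array that belong to the lists of partners and targets described below, 8 had a promoter window. Of these 8, 0 held an exact match to the CArG box and 1 held an exact match to the MEF2 site. That gene was Jun, whose AP-1 subunit is a textbook MEF2 target. The match is printed with 10 bases on either side (chr4:95052236-95052265, minus strand).
Jun: acatcatgggCTATTTTTAGggattgactg
A match describes the letters in these windows, and the absence of one says nothing about binding elsewhere. Sites inside the windows that depart from the searched pattern were not counted. A window without a match may therefore still hold a site of either kind.

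The arrays differed in brightness, which touches every value below. Summed over probes, the deposited intensity of replicate 1 was 165.3, that of replicates 2 to 5 lay in the range 35.2 to 41.3, and that of replicate 6 was 13.8. A noise bound for each array was taken from its lowest value, which was negative, with the sign dropped, and lay between 0.0011 and 0.0144. The 175 probes with values above 0 throughout, which stood for 162 named genes, entered the analysis, and all 3 members were among them. Log2 intensities were centred on the median of the kept probes of each array, so that 0 stands for the median kept probe. Levels of different probes say nothing of relative transcript abundance, since each probe has its own sensitivity. All 7 muscle fibre markers on the array, among them the slow myosin Myh7 and titin (Ttn), exceeded the noise bound on all 6 arrays. In all, 130 of the 223 probes did so, including the endothelial, fat cell, and fibroblast and matrix markers on the array. Passing the bound therefore does not identify the tissue. In whole muscle, fewer cells of a type and less RNA per cell cannot be told apart.

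Mef2a, which is made in many tissues besides muscle, had the smallest SD of the 3 after centring. Its deposited intensity was 0.0373, 0.0107, 0.0188, 0.0104, 0.0110 and 0.0053 on replicates 1 to 6. Every array exceeded its noise bound, by 2.59-fold on replicate 1 and by up to 7.43-fold on replicate 4. After centring, Mef2a stood at -0.79, -0.49, 0.29, -0.65, -0.62 and -0.90 on replicates 1 to 6, a mean of -0.53 ± 0.42 (SD, n = 6). Replicate 3 was high, and the other 5 arrays lay close together between -0.90 and -0.49. The range from the lowest to the highest array was 2.28-fold, and 1.63-fold when noise equal to the bound was allowed for on both arrays. The SD of Mef2a was larger than that of 20.4% of the 162 genes, whose median SD was 0.64.

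Mef2c, the MEF2 gene best known from muscle and heart development, was far above the noise bound on every array, by 46.6-fold to 139.9-fold. Its deposited intensity was 1.0043, 0.1872, 0.2638, 0.1959, 0.1725 and 0.0513 on replicates 1 to 6. The centred values were 3.96, 3.64, 4.10, 3.59, 3.35 and 2.37, with a mean of 3.50 ± 0.61 (SD, n = 6). Replicate 6 was low, and the other 5 arrays lay between 3.35 and 4.10. The range was 3.31-fold, or 3.20-fold with noise allowed for. By rank within its own array, which needs no scaling, Mef2c stood between 18 and 26 of 223 probes.

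Srf moved differently from array to array. Its deposited intensity was 0.1091, 0.0216, 0.0445, 0.0464, 0.0340 and 0.0498 on replicates 1 to 6, between 7.58 and 45.3 times the noise bound. The centred values were 0.75, 0.53, 1.53, 1.51, 1.01 and 2.33, with a mean of 1.28 ± 0.65 (SD, n = 6). Srf was highest on replicate 6, the array on which Mef2a and Mef2c were lowest, and lowest on replicate 2. It ranged 3.49-fold, or 3.11-fold with noise allowed for, and its rank ran from 28 on replicate 6 to 70 on replicate 2. Over all 162 genes, 21.0% were highest and 46.9% lowest on replicate 6, so extremes on that array are common.

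**Figure D1:**
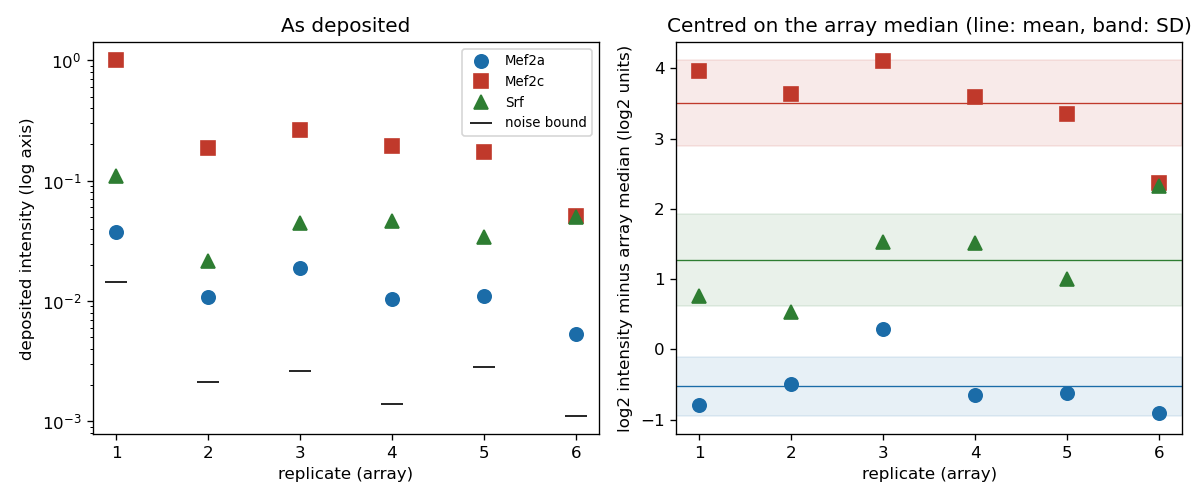
Intensity of Mef2a (circles), Mef2c (squares) and Srf (triangles) on replicates 1 to 6, as deposited on a log axis with the noise bound of each array (left) and as log2 intensity minus the array median with the mean as a line and the SD as a band (right). After centring, replicate 6 holds the highest Srf value, 2.33, and the lowest Mef2c value, 2.37.

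The scaling of the arrays set which array was highest for each member, while the lowest array held under 4 scalings. Mef2a and Mef2c were lowest on replicate 6, and Srf on replicate 2, after median centring or quantile normalization, as deposited, and relative to the 28S ribosomal RNA probe. The highest array was replicate 3 for both MEF2 genes after median centring and after quantile normalization, but replicate 1 as deposited and relative to 28S. For Srf it was replicate 6 on the first pair of scales, replicate 1 in deposited units and replicate 4 after scaling to 28S. The SD of Mef2c was 0.61 after centring, 0.45 after quantile normalization, 1.11 after scaling to 28S and 1.38 in deposited units. That of Mef2a ran over the same scales through 0.42, 0.41, 0.72 and 0.95. Srf depended least on the scale, with SDs of 0.65, 0.72, 0.80 and 0.77. In deposited units Srf had a smaller SD than all but 13.6% of the genes, against a median gene SD of 1.15.

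On replicates 2 to 5, the arrays of like brightness, the order of spread differed again. The SD there was 0.44 for Mef2a, 0.31 for Mef2c and 0.48 for Srf, with ranges of 1.91-fold, 1.68-fold and 2.01-fold. Whether 1 member varied more than another over all 6 arrays was tested with the Pitman-Morgan correlation of sum and difference, which is negative when the second gene varies more. It was -0.43 for Mef2a and Mef2c, -0.41 for Mef2a and Srf, and -0.083 for Mef2c and Srf. The exact two-sided permutation p adjusted over the 3 pairs was 0.669, 0.669 and 0.868, so none of the differences in spread passed the threshold.

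**Figure D2:**
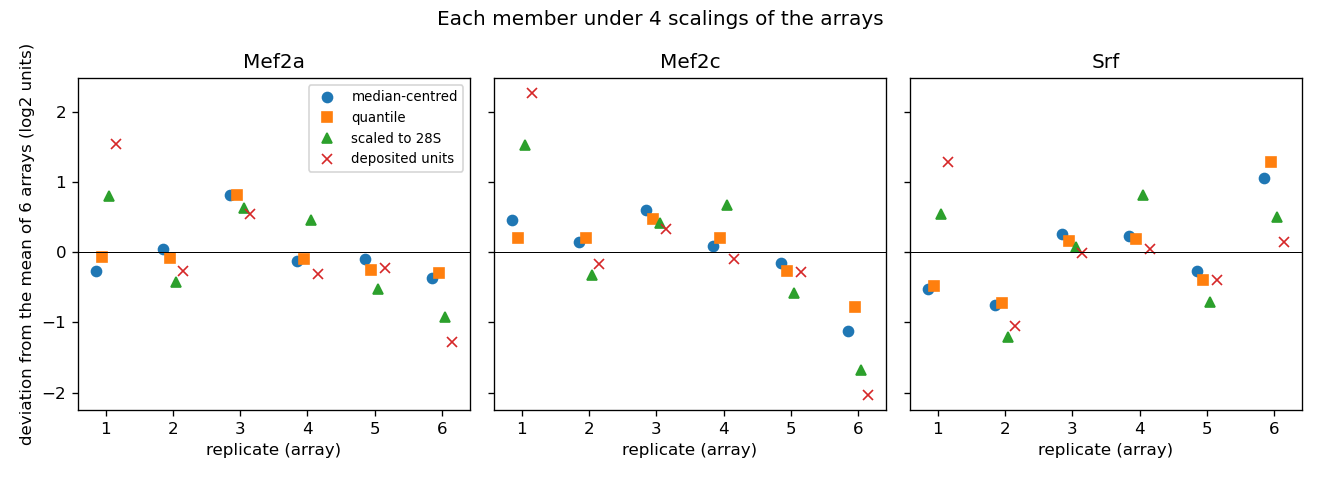
Deviation of each array from the mean of 6 arrays, in log2 units, for Mef2a, Mef2c and Srf under median centring (circles), quantile normalization (squares), scaling to 28S (triangles) and no scaling (crosses). The crosses of both MEF2 genes follow array brightness, high on replicate 1 and low on replicate 6, while Srf lies above its mean on replicate 6 under all 4 scalings.

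Ratios of members within an array do not depend on any scaling that multiplies the whole array. They are not free of an additive offset or a non-linear response of an array, neither of which was tested. The intensity of Mef2c over that of Mef2a was 26.9, 17.5, 14.0, 18.8, 15.7 and 9.68 on replicates 1 to 6. On replicates 2 to 5 it stayed within 1.34-fold, while over all 6 arrays it ranged 2.78-fold, highest on replicate 1 and lowest on replicate 6. With noise equal to the bound taken from one gene and added to the other, in either direction, it was 19.1 to 44.5 on replicate 1 and 7.84 to 12.5 on replicate 6. The SD of this log2 ratio, 0.49, was larger than that of 27.3% of the ratios of the 161 other genes to Mef2a, whose median SD was 0.68.

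The ratio of Srf to Mef2c differed most. It was 0.109, 0.115, 0.169, 0.237, 0.197 and 0.971 on replicates 1 to 6, an 8.94-fold range, against 2.05-fold on replicates 2 to 5. Replicate 6 stood apart from the other 5 arrays. With noise allowed for in either direction the ratio was 0.929 to 1.01 on that array and 0.228 to 0.246 on replicate 4, the next highest. The SD of the log2 ratio was 1.15, larger than that of 75.8% of the ratios of the 161 other genes to Mef2c (median 0.64). The ratio of Srf to Mef2a was 2.92, 2.02, 2.37, 4.46, 3.09 and 9.40 on replicates 1 to 6. It was also highest on replicate 6, with 7.61 to 12.1 after the allowance for noise, against 3.81 to 5.31 on replicate 4. After quantile normalization the Srf ratios still ranged 7.89-fold over Mef2c and 4.67-fold over Mef2a, both highest on replicate 6. The range of Mef2c over Mef2a fell to 1.72-fold, lowest on replicate 6 but highest on replicate 4.

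Some marker shares of the summed intensity also stood at an extreme on replicate 6. The 2 fat cell markers on the array, Pparg and the lipoprotein lipase gene Lpl, made up 0.730% of its summed intensity, with 0.127% to 0.267% on the other arrays. The 5 endothelial markers on the array made up 0.767% of it, with 0.288% to 0.681% on the others. On replicate 6 the sum was 13.8 and the median kept probe 0.0099, with 35.5 and 0.0169 on replicate 5. The sum was thus small against the median on replicate 6, which raises the share of an ordinary probe. After centring, Pparg and Lpl were highest on replicate 6. Among the endothelial markers, Kdr and Flt1 were highest on replicate 6, Tek on replicate 4 and Pecam1 on replicate 5. Cdh5 was highest on replicate 4 and lowest on replicate 6. Muscle fibre markers held 12.8% there, within their range of 10.4% to 18.2%. The fibroblast and matrix genes Pdgfra and Fn1 held 0.241%, within theirs of 0.177% to 0.343%. After centring, the fibre markers Myh7, Myh2, Myh1, Myh4, Des and Mb were lowest on replicate 6, and Ttn on replicate 5. Pdgfra was highest and Fn1 lowest on replicate 6. Over all 162 genes, 46.9% were lowest on that array. Of the listed smooth muscle and nerve markers, 0 were on the array. Il1b and Il6, the 2 inflammatory markers on the array, were at or under the noise bound on all 6 arrays. Replicate 6 was also the dimmest array. The part of these features in the Srf values was not tested.

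**Figure D3:**
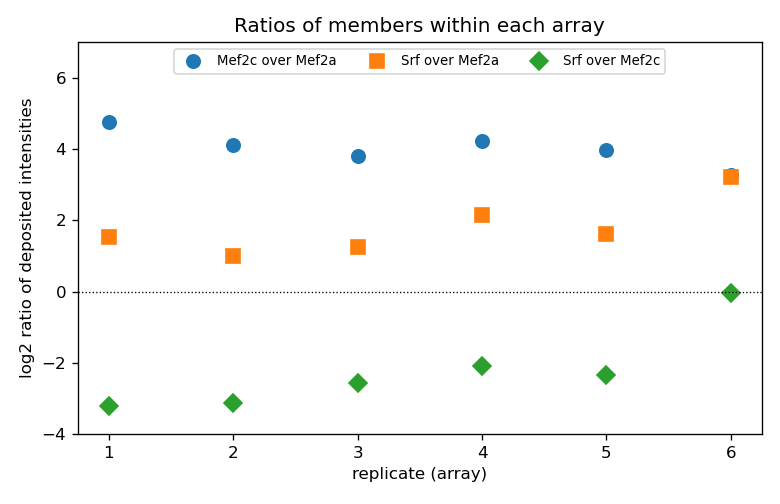
Log2 ratios of deposited intensities within each array, for Mef2c over Mef2a (circles), Srf over Mef2a (squares) and Srf over Mef2c (diamonds), on replicates 1 to 6. On replicate 6 Srf over Mef2c reaches -0.043, against -3.20 to -2.08 on the other arrays, and the circle and the square nearly coincide.

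Correlation over the 6 arrays addressed whether the members rose and fell together, with 3 pairs tested. After centring, Mef2a and Mef2c had Pearson's r of 0.61 (exact two-sided permutation p = 0.203, adjusted p = 0.304). Spearman's rho was 0.60, with an exact permutation p of 0.242 for rho and 0.658 after adjustment. Without replicates 3 and 6, the arrays farthest from the median of Mef2a, r was -0.57 over 4 arrays (exact permutation p = 0.333, adjusted p = 0.833). Without replicate 3 alone it was 0.53, and without replicate 6 alone 0.55. Those arrays were picked by their Mef2a values, so leaving them out cannot show what the relation rested on. In deposited units r reached 0.98 (exact permutation p = 0.00833, adjusted p = 0.025). Relative to 28S it reached 0.95 (exact permutation p = 0.00556, adjusted p = 0.0167). The median r of Mef2a with the other 161 genes was 0.89 in deposited units. After scaling to 28S that median was 0.82 over 160 genes, since the 28S gene itself is constant there.

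Srf was not shown to follow either MEF2 gene. Its r with Mef2c came to -0.66, with an exact permutation p of 0.160, or 0.304 after adjustment. The rho was -0.31, with an exact permutation p of 0.564 for rho and 0.658 after adjustment. The Pearson value was -0.35 without replicates 3 and 6, and 0.17 without replicate 6 alone. With Mef2a, Srf gave an r of -0.058, for which the exact permutation p was 0.915 before and after adjustment. The rho was -0.26, with an exact permutation p of 0.658 before and after adjustment. Here r was -0.24 without replicates 3 and 6 and 0.50 without replicate 6 alone. In deposited units both signs turned, to 0.54 with Mef2c and 0.58 with Mef2a. These p-values miss the threshold and do not show that the genes were unrelated.

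**Figure D4:**
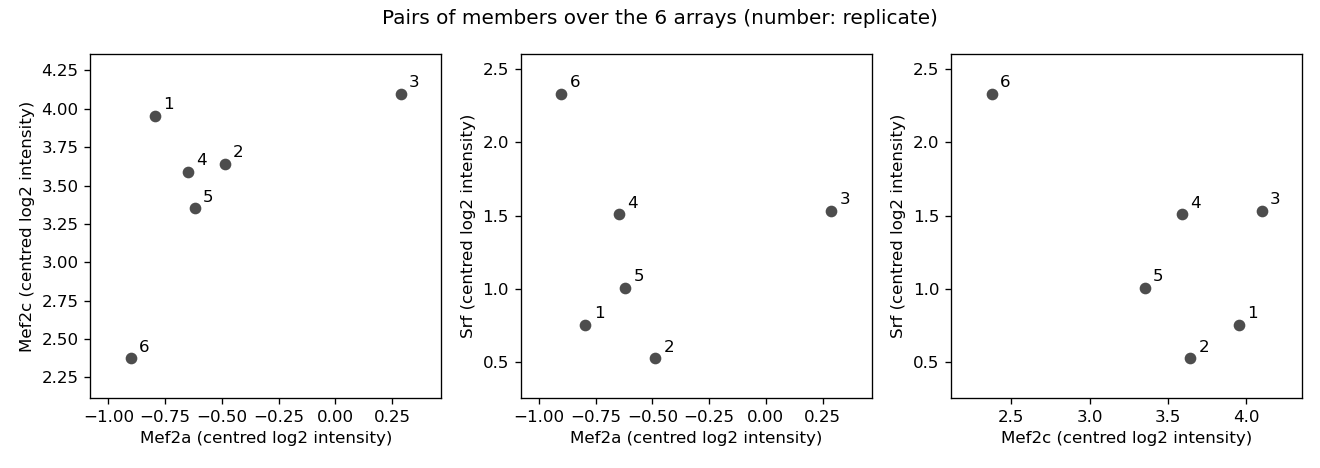
Centred log2 intensity of 1 member against another over the 6 arrays, each point labelled with its replicate number. Replicate 6 lies alone in the panels with Mef2c, and replicate 3 lies alone on the Mef2a axis.

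Array brightness was set against each centred member as a technical measure. The array median was subtracted in centring and is also the measure here, which the permutation p does not allow for. Pearson's r with the log2 median intensity of the array was 0.58 for Mef2c (exact permutation p = 0.229, adjusted p = 0.369), -0.58 for Srf (exact permutation p = 0.246, adjusted p = 0.369) and -0.17 for Mef2a (exact permutation p = 0.611, adjusted p = 0.611). Spearman's rho was 0.31 (exact permutation p = 0.564, adjusted p = 0.846), -0.43 (exact permutation p = 0.419, adjusted p = 0.846) and -0.029 (exact permutation p = 1, adjusted p = 1) in the same order. Without replicates 1 and 6 the r turned to -0.66 for Mef2c and 0.32 for Srf, and was -0.51 for Mef2a. Over all 162 genes the median r was 0.26, and 0% passed this test after adjustment and 11.1% at an unadjusted p under 0.05. The arrays without replicates 1 and 6 are the 4 of like brightness, and there the exact permutation p adjusted over the 3 members was 0.667 for each.

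Partner and target genes were read against all genes on the array. Each member was correlated with the 161 other kept genes, and 0% passed an adjusted exact permutation p of 0.05 for Mef2a, Mef2c or Srf. At an unadjusted p under 0.05, Mef2a had 2.48% of genes with a positive r and 1.24% with a negative one. For Mef2c the shares were 27.3% and 8.07%, and for Srf 1.24% and 10.6%. The smallest p that 720 pairings can give is 0.00139.

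The myogenic factors Myod1, Myog and Myf6, which act on muscle promoters together with MEF2, were kept, while Myf5 exceeded the noise bound on 1 array. Mef2c had a positive r with all 3, from 0.53 for Myod1 through 0.63 for Myog to 0.92 for Myf6, the factor of mature fibres (unadjusted exact permutation p = 0.00278, adjusted p = 0.066). The median of 0.63 compares with 0.53 over all genes. Mef2a had r of 0.53 with Myf6, 0.25 with Myog and -0.015 with Myod1, a median of 0.25 against 0.24 over all genes. Srf had a negative r with all 3, from -0.43 for Myog and -0.66 for Myf6 to -0.93 for Myod1, the factor that commits cells to the muscle lineage (unadjusted exact permutation p = 0.00556, adjusted p = 0.410). Its median was -0.66, against -0.18 over all genes. In deposited units the r of Srf with Myod1 was 0.26 and after scaling to 28S -0.24, so its sign depended on the scaling.

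Of 15 textbook MEF2 targets, 8 were on the array and all 8 were kept: Des, Mb, Slc2a4, Cox6a2, Aldoa, Cpt1b, Jun and Myog. None passed the adjusted test with either MEF2 gene. With Mef2c, 3 of 8 passed unadjusted, all with positive r, against 27.3% of all genes. The highest was Cpt1b, which lets fatty acids into mitochondria (r = 0.93), and the lowest Jun (r = 0.048). The median r was 0.75, against 0.53 over all genes, but after quantile normalization it was 0.23 against 0.37. With Mef2a the median was 0.46 against 0.24, with the glycolytic enzyme gene Aldoa highest (r = 0.74) and Jun lowest (r = -0.57), and 0 of 8 passed unadjusted. After quantile normalization that median was 0.080, against 0.21 over all genes. Jun, the gene with the MEF2 site printed above, thus had the lowest r of the 8 with both MEF2 genes. Its own SD was 0.15, so it varied little on this scale, and without replicates 3 and 6 its r was 0.92 with Mef2c and -0.48 with Mef2a. With Srf the same 8 genes had a median r of -0.39, against -0.18, from -0.55 for the myoglobin gene Mb to 0.041 for the glucose transporter Slc2a4. This order turned after quantile normalization, with 0.055 against -0.034, and in deposited units, with 0.69 against 0.59.

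Of 20 textbook SRF targets, 5 were on the array and 4 were kept: Fosl1, Thbs1, Tnc and Myod1. The AP-1 gene Junb was above its noise bound on 0 arrays. With Srf, 0 of 4 passed the adjusted test, and 2 of 4, Fosl1 (r = -0.83) and Myod1, passed unadjusted with a negative r, against 10.6% of all genes. Fosl1 exceeded the noise bound on 4 of 6 arrays. The highest r was 0.59 for the matrix gene Tnc, and the median -0.78, against -0.18 over all genes. After quantile normalization the median was -0.79 against -0.034, and in deposited units 0.30 against 0.59. With Mef2c these 4 genes had a median r of 0.70 against 0.53, from -0.56 for Tnc to 0.92 for Thbs1, a matrix protein gene. Mef2a had a median of 0.12 with them, against 0.24, with Thbs1 highest (r = 0.64) and Myod1 lowest. Of 14 relatives and cofactors listed, among them Mef2b, Mef2d and the myocardin family, 0 were on the array.

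The r of the muscle fibre markers depended on the scaling. With Mef2c, 6 of the 7 passed at an unadjusted p under 0.05, against 27.3% of all genes, and 0 after adjustment. The r ran from 0.71 for Ttn to 0.93 for Mb, with a median of 0.89. After quantile normalization the median was -0.017, against 0.37 over all genes. With Srf the fibre markers had a median of -0.51 after centring, against -0.18 over all genes, and 0.043 after quantile normalization, against -0.034. With Mef2a it was 0.47 against 0.24, and -0.14 against 0.21. The endothelial markers had a median r of -0.24 with Mef2c, against 0.53, and 0.12 with Srf, against -0.18. Kdr, the main VEGF receptor, was highest with Srf (r = 0.74). The endothelial median with Mef2c was -0.25 after quantile normalization, against 0.37. It was 0.88 in deposited units, against 0.93, and 0.80 relative to 28S, against 0.88. The fat cell gene Pparg had r of -0.94 with Mef2c and 0.54 with Srf. Its r with Mef2c was -0.37 without replicates 3 and 6, and that with Srf -0.39 without replicates 2 and 6.

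**Figure D5:**
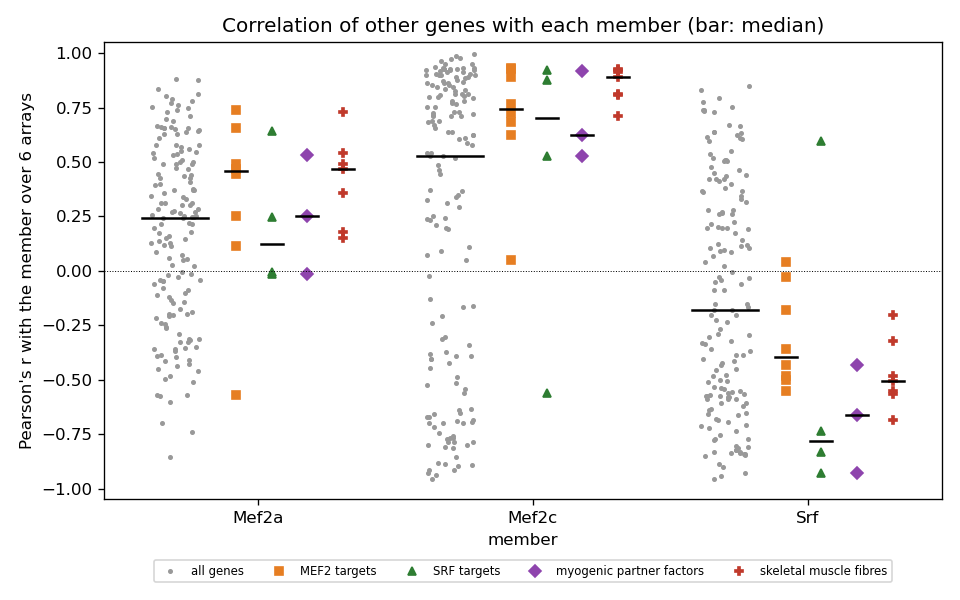
Pearson's r over 6 arrays of other genes with Mef2a, Mef2c and Srf, for all 161 other kept genes (dots) and for the genes of 4 lists (symbols), with medians as bars. The dots of Mef2c gather at high values (median 0.53) and those of Srf reach lower (median -0.18), and the lists shift with them.

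The genes most like each member were ranked by Pearson's r over the 6 arrays after centring. For Mef2c they were Plaur, the urokinase receptor gene (r = 0.995), the mitochondrial malate dehydrogenase gene Mdh2 (r = 0.99) and the cytochrome oxidase subunit gene Cox4i1 (r = 0.98), each with an adjusted exact permutation p of 0.066. Without replicates 3 and 6 their r was 0.97, 0.97 and 0.88. Plaur exceeded the noise bound on 4 of 6 arrays. The most opposite genes were the ephrin gene Efnb1 (r = -0.96), Pparg (r = -0.94) and the cell cycle kinase gene Cdk4 (r = -0.93). Without replicates 3 and 6 the r of these 3 was -0.90, -0.37 and -0.93, and in deposited units -0.041, -0.096 and -0.29.

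For Mef2a the highest were Igfbp5, a binding protein of insulin-like growth factors (r = 0.88), the lysosomal membrane gene Scarb2 (r = 0.88) and the glycolytic gene Pgk1 (r = 0.83). Without replicates 3 and 6 their r was -0.17, 0.88 and -0.88, so only Scarb2 of these 3 kept its sign. The lowest were Ppara, a regulator of fatty acid oxidation (r = -0.86), the angiotensin-converting enzyme gene Ace (r = -0.74) and Ldhc, the testis form of lactate dehydrogenase (r = -0.70). All 3 signs turned in deposited units, to 0.77, 0.78 and 0.61, and relative to 28S, to 0.62, 0.63 and 0.29. For Srf the highest were the gelatinase gene Mmp2 (r = 0.85), the glucose transporter gene Slc2a3 (r = 0.83) and the kinase gene Btk (r = 0.80). Without replicates 2 and 6 their r was 0.86, -0.0086 and 0.49. The lowest were the protease gene Mmp10 (r = -0.96), the glucose transporter gene Slc2a2 (r = -0.94) and Myod1. In deposited units Mmp10 had r of 0.27 and Slc2a2 of 0.47, and relative to 28S -0.18 and 0.15. Among these 12 genes the lowest adjusted exact permutation p was 0.410.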

How the data were processed

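Per the labels' protocols, RNA was isolated from cryosections with a column kit. The deposited values are intensities, 1 per probe and array, on a linear scale with some values below 0. The scanner, background method and normalization are not given in the sources used here. Names came from the platform annotation, which gave 205 of 223 probes 1 gene and left 18 unnamed. For a gene with several probes the brighter was taken.

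Values were converted to log2 without a pseudocount. All relations were Pearson's or Spearman's correlations over the 6 arrays, with exact two-sided permutation p-values over 720 pairings, adjusted by Benjamini and Hochberg over the 3 pairs, the 3 members or all genes tested, at a threshold of 0.05. The scan was tested on simulated data in which the planted genes were tightly correlated. That test does not show whether the scan could find weaker relations. Arrays have no depth, and their number limits the precision. Python 3.11.15, numpy 2.4.6 and pandas 2.3.3 were used.

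The members, the lists of partners, targets and markers, and the tests were chosen with earlier results of these data known. The text names, for each member, the 3 genes of highest and the 3 of lowest r, and the extreme genes and partner factors of each list. Other genes (Il1b, Il6, Junb, Kdr, Pparg among the markers and targets) were singled out after their values were seen. Alternatives were the scaling, the filter on low values and the arrays left out. Replicates 2 to 5 alone were added after the data had been seen.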

Additional observations from a re-analysis of the deposited data

Results flagged for a closer look

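Among 6 sets of 6 values (the 3 centred members and their 3 log2 ratios), 2 held an array that passed Dixon's critical value for the gap to its neighbour as a share of the range. Chance flags about 1 set in 20, or 0.3 of 6. Centred Mef2a was high on replicate 3, at 0.29 with -0.49 as the next value, a gap of 0.652 of the range. The log2 ratio of Srf to Mef2c was high on replicate 6, at -0.043 with -2.08 as the next value, a gap of 0.644 of the range. The sets share arrays and genes and are not independent. The shares of fat cell and endothelial markers in the summed intensity and the dim signal of replicate 6 are given beside the ratios. Their part was not tested.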

How the results depend on the processing

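Of 171 values recomputed under alternatives, 140 kept their direction and their side of the threshold or moved by less than the spread, 17 turned sign, 6 passed the threshold that the reported value missed, and 8 moved. The r of Mef2a and Mef2c was 0.98 in deposited units and 0.95 relative to 28S. The r of Mef2a and Srf was 0.58 and 0.44 on these 2 scales, and 0.083 without a filter on low values. For Mef2c and Srf it was 0.54 and 0.31. The spread test gave 0.26 for Mef2a and Srf in deposited units, and 0.59 as deposited and 0.34 relative to 28S for Mef2c and Srf. Of 161 other genes (160 for 28S), 0 passed the adjusted test with Mef2a after centring, 60 as deposited and 43 relative to 28S. With Mef2c the counts were 0, 83 and 87, while with Srf the count was 0 under all alternatives run. The median r over all genes was 0.89 with Mef2a and 0.93 with Mef2c as deposited. Relative to 28S it was 0.82 and 0.88. The r of Mef2a with brightness was 0.0069 after quantile normalization. Without the 2 arrays farthest from the median, the r of Mef2a and Mef2c was -0.57, and the r with brightness -0.66 for Mef2c and 0.32 for Srf. The cause of these changes was not tested.

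Leaving out 1 array at a time, the r ran from 0.53 to 0.80 for Mef2a and Mef2c, from -0.73 to 0.50 for Mef2a and Srf, and from -0.88 to 0.17 for Mef2c and Srf, where the highest value of the last 2 came without replicate 6. The spread test ran from -0.90 to 0.40, from -0.96 to -0.063 and from -0.39 to 0.19 for the same pairs. The r with brightness ran from -0.47 to 0.36 for Mef2a, from 0.42 to 0.80 for Mef2c and from -0.81 to -0.35 for Srf. The counts of genes stayed at 0, in a design of 5 arrays that can hardly pass the adjusted threshold. No paired analysis was possible because the labels give a single group. Mef2a on replicate 1 lay nearest to the noise bound, at 2.59 times its size.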
